A study of Homo sapiens with 2 samples.

Results

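The regions described here are RBM47 tag clusters that lie wholly in introns of genes that also carry clusters in exons. They were chosen by 2 columns of the deposited cluster table, the location label and the Entrez gene ID. A cluster was taken when its label was intron alone and when its gene ID had at least 1 other cluster whose label included 3'UTR, CDS, 5'UTR or exon_unclassified, the 4 exonic labels. Both labels exist only where tags were counted, so the choice rests on the binding data themselves. In all, 89701 of 233546 clusters qualified, which is 38.4% of the table, and they lay in 3417 of the 7712 genes with any cluster. They are called member clusters here.

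The study asked which RNAs RBM47, an RNA-binding protein, contacts in breast cancer cells. Its HITS-CLIP samples form 1 group with 2 replicates, all from MDA231-BrM2a, a non-clonal derivative of the human breast cancer line MDA-MB-231 that metastasises to brain. In both replicates a wild-type RBM47 transgene with a Flag tag was switched on through an inducible promoter by doxycycline at 1 ng/ml over 3 days, after which the cells were irradiated. No control library is analysed here, so neither the background of the pull-down nor the abundance of any RNA was measured, and more RBM47 on an RNA cannot be told apart from more of that RNA.

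In HITS-CLIP, ultraviolet light joins RNA to the proteins in contact with it, an antibody retrieves the protein of interest and the RNA fragments that come with it are sequenced. A tag is a unique read, and a cluster is a run of overlapping tags. Introns are copied with the rest of the gene and are removed by splicing in the nucleus, so a tag in an intron comes as a rule from RNA that has not been fully processed, whereas a tag in a 3' untranslated region (3'UTR) can come from the nascent or the mature transcript. Proteins with RNA recognition motifs that bind introns include many regulators of exon choice.

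The 2 libraries differed in size. The replicate columns do not always add up to the authors' total, and their sum exceeded it in 11.04% of member clusters and in 20.6% of 3'UTR clusters of the same genes. The clusters held 999047 tags in the replicate 1 column and 3489697 tags in the replicate 2 column. No listed cluster had fewer than 5 tags in total or lacked tags from either library. All 8 markers of mesenchymal-like breast cancer lines had clusters, led by CD44 with 8676 tags, whereas 6 of 8 markers of luminal breast epithelium had none and the other two, EPCAM and ERBB3, had 11 and 6 tags.

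Member clusters made up most of the intronic binding that could be given to a gene. Of 95669 intron clusters with a gene ID, 93.8% (95% Wilson interval 93.6 to 93.9%) were member clusters. They lay in 3417 genes. The rule acts on whole genes, so the intron clusters of a gene enter or stay out together. The interval treats them as independent and is too narrow. The remaining 5968 intron clusters lay in 760 genes with no exonic cluster. Member clusters held 225.7 of every 1000 tags in replicate 1 and 204.1 in replicate 2, or 21.5% ± 1.52 (SD, n = 2) of the tags. The share was higher in replicate 1, the smaller library, from which every listed cluster has at least 1 tag. Intervals given here cover counting error only.

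The exonic partners that brought genes in were mostly in 3'UTRs. Of the 3417 genes, 92.0% had a cluster whose label included 3'UTR and 80.5% one whose label included CDS. A 5'UTR partner was present in 33.2% and an unclassified exon in 11.3%. The rule has a low threshold, and 285 genes with 3607 member clusters had a single exonic cluster. In 101 genes the exonic clusters held 5 tags in all, the fewest the table lists. The 1072 member clusters of those genes just inside the rule had a median of 6 tags. Just outside it, the intron clusters of genes without an exonic cluster also had a median of 6 tags. Their genes had a median of 2 intron clusters and 12 tags, against 6 and 43 in the genes of the member clusters. The rule asks for a further cluster, which a gene with few tags is less likely to have. How far this makes the gap was not tested.

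Single member clusters were shallow. The median held 7 tags, 2 from replicate 1 and 5 from replicate 2, and 26.1% held exactly 5. The 10th percentile was 5 tags, the 90th 17 and the largest 856. At least 10 tags were present in 29.3%, at least 30 in 3.58% and at least 100 in 0.332%. The 26297 member clusters with at least 10 tags nevertheless held 56.7% of the member tags. Length was also small, with a median of 78 nt and a range from the 10th to the 90th percentile of 48 to 138 nt. Across clusters, longer ones held more tags (Spearman's rho 0.556 over 89701 clusters, which share libraries and genes).

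The depth of the same genes' other clusters was compared within each library. On the log2 scale the mean member cluster held 0.95 in replicate 1 and 2.60 in replicate 2. For the 23471 clusters labelled 3'UTR alone in the same genes these means were 1.98 and 3.86. Member clusters were therefore lower by a difference of -1.03 in replicate 1 and -1.26 in replicate 2, a mean of -1.14 ± 0.168 (SD, n = 2) in log2 tags per cluster. The 17345 CDS clusters of the same genes lay between, with a difference of -0.44 ± 0.136 (SD, n = 2) for member minus CDS clusters. Against intron clusters of genes bound only in introns, member clusters were higher by 0.25 ± 0.0664 (SD, n = 2), a gap that shrank to 0.0355 when each gene counted once through its mean. Each of these differences had one sign in both libraries and exceeded the SD between them, apart from that last mean over genes, which was taken on the total alone. With 2 libraries an exact two-sided test cannot give a p below 0.5, and none was run.

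**Figure D1:**
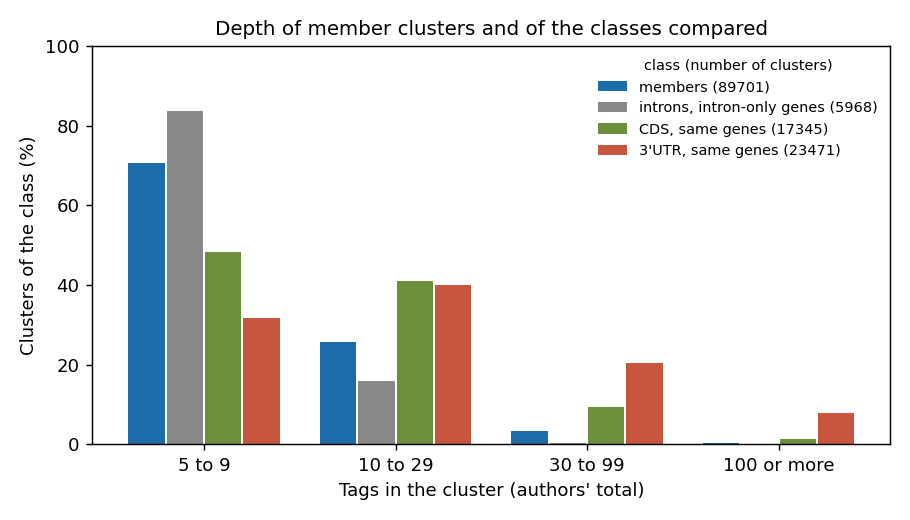
Share of clusters (%, y axis) by tags per cluster in the authors' total (x axis) for member clusters, intron clusters of genes bound only in introns, and CDS and 3'UTR clusters of the genes that hold the member clusters. Member clusters sit between the other introns and the coding clusters, with 70.7% at 5 to 9 tags against 31.6% of 3'UTR clusters.

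The gap to 3'UTRs held gene by gene as well. In 3014 genes with both kinds of cluster, the mean number of tags per cluster was higher in 3'UTR clusters in 2609 genes and higher in member clusters in 362. Per 100 nt of cluster length, member clusters held 11.6 tags, CDS clusters 17.3 and 3'UTR clusters 32.8. The exceptions were chosen after their values were seen. Among 709 genes with at least 20 member clusters and at least 2 3'UTR clusters, 76 had more tags per member cluster. They were led by DNAJC25-GNG10, a readthrough gene whose clusters could belong to either neighbour, with 26.2 tags per member cluster against 10.7, and by ANKRD10, an ankyrin repeat gene, with 15.7 against 7.20. PELO, which encodes a ribosome rescue factor and lies inside the integrin gene ITGA1, had 15.8 against 8, and clusters of overlapping genes cannot be assigned with certainty. AIMP1, a scaffold of the aminoacyl-tRNA synthetase complex, had 22.3 against 12.6. CSTF3, a subunit of the cleavage stimulation factor in 3' end formation, had 16.0 over 171 member clusters against 10.0 over 2 3'UTR clusters.

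The replicates ranked genes alike but not single clusters. Across 3417 genes, member tags in replicate 1 and replicate 2 had a Spearman's rho of 0.970. Across single member clusters rho was 0.233, rising to 0.350 at 10 tags or more, 0.597 at 30 or more and 0.701 at 100 or more. The 3'UTR clusters of the same genes gave 0.768. In 38.5% of member clusters replicate 1 contributed 1 tag, against 19.5% of 3'UTR clusters. The values describe points that share libraries, genes and depth. No listed cluster held fewer than 5 tags in total or lacked a tag from either library. This floor narrows the range of shallow clusters and gives each cluster of a gene tags in both libraries. It therefore bears on the values for clusters and for genes, to a degree that was not tested.

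The split of tags between the libraries was tested cluster by cluster with a two-sided exact binomial test with the pooled replicate 1 share, 22.3%, as the expected value. Benjamini-Hochberg adjustment over the whole table called 26 of 233546 clusters, or 0.0111%, and 2 of the 89701 member clusters were among them, or 0.00223%. An unadjusted p below 0.05 was found for 2431 member clusters, or 2.71%, against 3.04% of all clusters. These rates depend on depth, and 70.7% of member clusters held 5 to 9 tags, with at least 1 from replicate 1. At that depth a low replicate 1 share cannot reach an unadjusted p below 0.05. The rates are therefore no measure of how well the replicates match in member clusters. The first call was a 37-nt cluster in DCTN6, a dynactin subunit, at chromosome 8, 30154463 to 30154500 on the plus strand, with 14 tags in replicate 1 and 217 in replicate 2 (adjusted p = 9.89e-07 by the exact binomial test). The second was a 92-nt cluster in EIF4A2, a translation initiation helicase gene whose introns host small nucleolar RNAs, at chromosome 3, 187987254 to 187987346 on the plus strand, with 12 and 140 tags (adjusted p = 0.0308 by the exact binomial test). Both were low in replicate 1. With a beta-binomial test, which allows for extra spread between libraries, DCTN6 was still called (adjusted p = 0.000163) and EIF4A2 was not (adjusted p = 0.242). The test compares these libraries and not conditions.

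Summed over all of them, member clusters took 24.0% of their tags from replicate 1, against 21.0% in the 3'UTR clusters of the same genes. The difference of 3.0 percentage points moved with depth. At 5 to 9 tags the replicate 1 share was 27.2% in member clusters and 26.2% in 3'UTR clusters. At 10 to 29 tags the values were 22.1% and 21.3%, and at 30 to 99 tags 20.9% and 20.6%. In clusters of 100 tags or more they were 20.5% (95% Wilson interval 20.1 to 20.8%) and 20.7% (20.6 to 20.8%), intervals that overlap. The pooled difference was larger than that within any of these depth groups, the shallowest of which held 70.7% of member clusters and 31.6% of 3'UTR clusters. Every listed cluster has at least 1 tag from replicate 1, the smaller library, a floor that raises its share most in shallow clusters. The part of this floor in the differences was not tested.

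**Figure D2:**
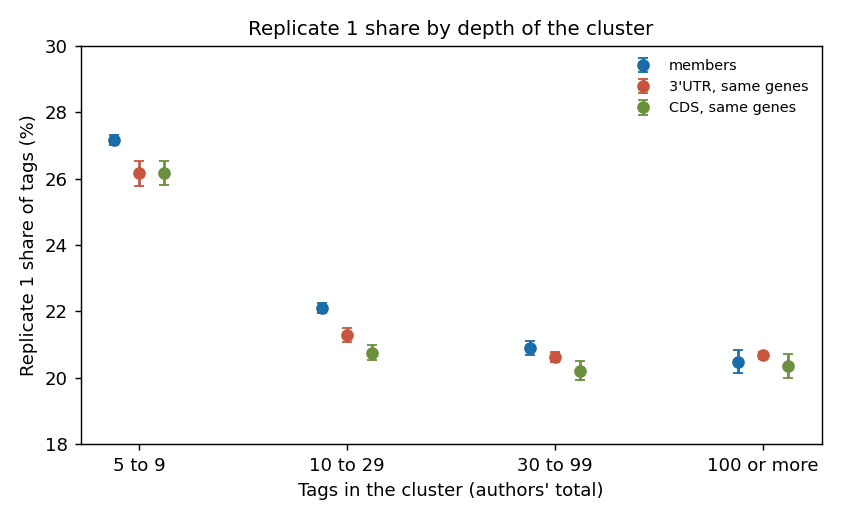
Replicate 1 share of tags (%, y axis, starting at 18) by tags per cluster (x axis) for member clusters and for 3'UTR and CDS clusters of the same genes, with 95% Wilson intervals. All 3 classes fall from over 26% at 5 to 9 tags to between 20% and 21% at 100 tags or more. Every listed cluster has at least 1 tag from replicate 1, which raises its share most in shallow clusters.

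Within the genes that hold them, member clusters took 35.0% of the tags in member and exonic clusters together, 38.0% in replicate 1 and 34.3% in replicate 2 (36.1% ± 2.64, SD, n = 2). The median gene had an intron share of 25%. Genes spread over the whole range. In 1021 genes member clusters held more than 50% of the tags and in 209 more than 90%, whereas in 1010 they held less than 10%. Member tags and exonic tags were weakly related across the 3417 genes (Spearman's rho 0.248), and less so per nucleotide of cluster (0.133).

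A small set of genes held a large part of the member tags. The first gene held 5.46% of them, the first 10 genes 19.3% and the first 100 genes 49.0%. By replicate, the first 10 genes held 17.2% in replicate 1 and 19.9% in replicate 2 (18.6% ± 1.91, SD, n = 2). The share rested on depth and on one gene. It was 41.2% when replicate 1 alone was used with its clusters of 5 tags or more, 58.5% among clusters of at least 30 tags, and 15.5% when EXT1 was left out. At the other end, 638 genes had a single member cluster. The 186 genes with at least 100 member clusters held 50.1% of the clusters and 59.3% of the tags.

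EXT1, which encodes a glycosyltransferase that extends heparan sulfate chains, stood first. Its 1186 member clusters held 50519 tags, or 10.0 per 1000 tags in replicate 1 and 11.7 in replicate 2. The gene after it, ZFAND3, which encodes an AN1-type zinc finger protein, held 24427 tags in 1328 member clusters, or 5.23 and 5.61 per 1000. EXT1 was above every other gene in both libraries. HDAC9, a class IIa histone deacetylase gene, followed with 18614 tags in 1303 member clusters, 4.35 and 4.17 per 1000. FRMD6, a FERM domain gene tied to the Hippo pathway, and ZNF804A, a zinc finger gene, held 17035 and 16980 tags. FRMD6 had 3.82 and 3.86 per 1000 tags, and ZNF804A 3.86 and 3.83, so the order of these neighbours differed between the replicates.

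The rest of the first 20 genes fell from 2.72 per 1000 tags in MIR100HG to 1.13 in SAMD12, as means of the replicates. MIR100HG, the noncoding host gene of miR-100 and its neighbours, held 12184 tags. NAV3, which encodes a microtubule-associated neuron navigator, held 11503, and COL8A1, the alpha 1 chain of collagen VIII, held 10208. ADK, the adenosine kinase gene, held 8867 in 872 member clusters, and FTX, a noncoding gene of the X inactivation centre, held 8231. The other genes in this group were SAMD4A, a Smaug-type translational repressor gene, FAM155A (now NALF1), the lymphatic growth factor gene VEGFC, the formin gene FMN1, the Ras GTPase-activating gene RASAL2, PCNXL4 (now PCNX4), ANKRD17, IL1RAPL1, the ephrin gene EFNA5 and SAMD12. All 10 genes with the most member clusters were among these 20.

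**Figure D3:**
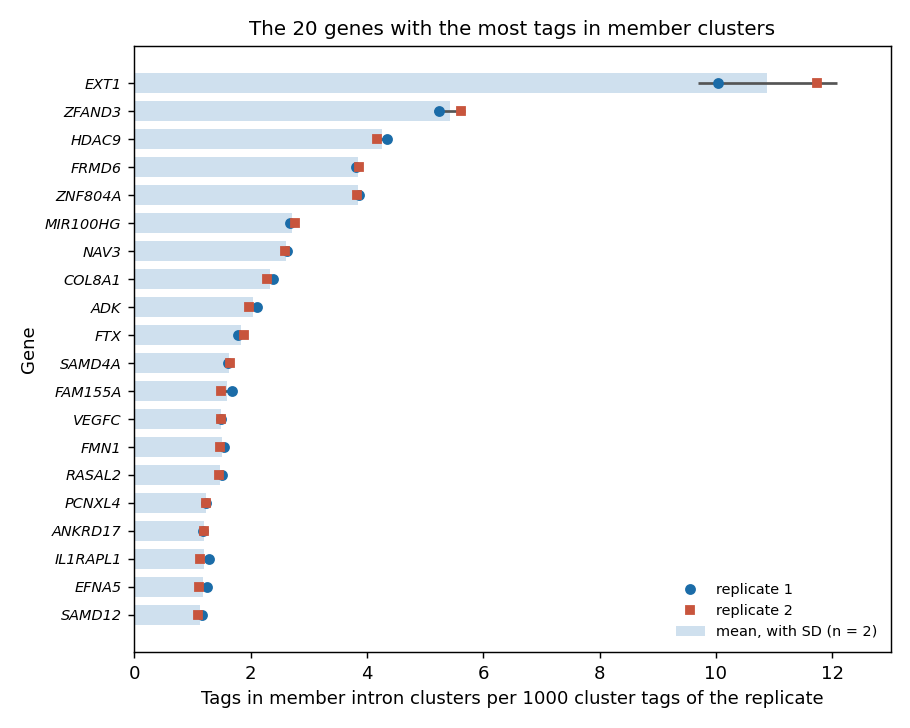
Tags in member clusters per 1000 cluster tags of the replicate (x axis) for the 20 genes with the most member tags (y axis), as replicate values, means and SD (n = 2). EXT1 lies at 10.0 and 11.7, apart from ZFAND3 at 5.23 and 5.61, and the 20th gene, SAMD12, lies at 1.17 and 1.09.

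These genes had most of their tags in introns. They were picked by their member tags, which also make up the intron share, so the choice itself favoured high shares. Their intron shares ran from 61.1% in COL8A1 to 99.1% in FAM155A, with a median of 93.9%, and 13 of the 20 exceeded 90%. COL8A1 stood out by its exonic clusters, 12 of which held 6510 tags. Per kilobase of cluster length, exonic clusters were nevertheless denser in 15 of the 20 genes, leaving 5 genes with more tags per kilobase in member clusters. FRMD6 had 194.1 tags per kilobase in member clusters and 676.0 in exonic ones, whereas ZNF804A had 158.9 and 154.2. The genes were also covered to very different degrees. Member clusters lay over 60.8% of the stretch from the first to the last member in EXT1, 54.6% in MIR100HG and 46.6% in ZFAND3, but over 11.2% in FAM155A. The median over 906 genes with at least 20 member clusters was 5.22%.

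The tags within a gene were not spread evenly along it. EXT1 held 49.2% of its member tags in the first 25% of the stretch between its first and last cluster, counted from the 5' end, and 3.99% in the last 25%. HDAC9 held 60.9% and 8.50% in these end parts, and ZNF804A 55.3% and 2.54%. In these 3 genes the first 25% held more tags than the last 25%. HDAC9 was highest in the first of 20 equal bins, which held 22.7% of its member tags. EXT1 rose from 5.91% in the first bin to 16.6% in the third, and ZNF804A from 9.47% in the first to 17.9% in the next. FRMD6 differed, with 0.223% of its tags in the first and 11.2% in the last, and most of its tags in the middle. MIR100HG held 2.45% and 28.7%. In 16 of the 20 genes the first 25% held more member tags than the last.

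**Figure D4:**
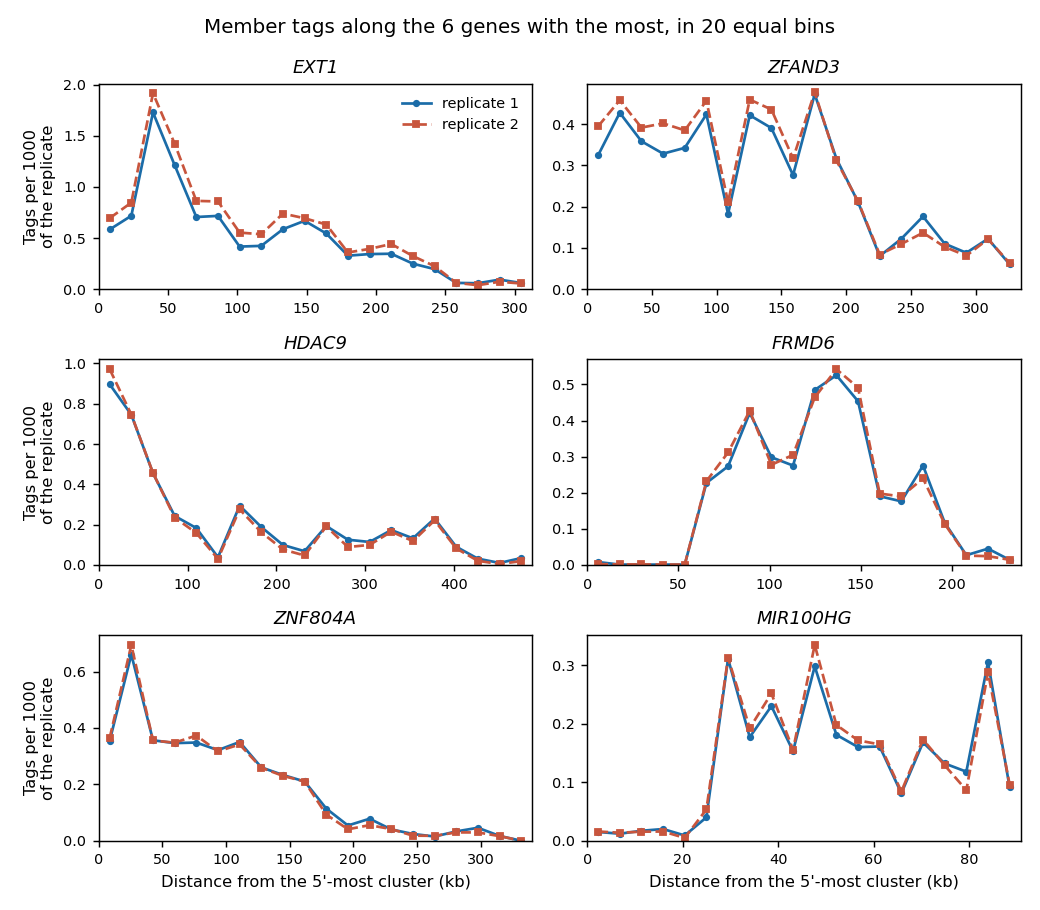
Member tags per 1000 tags of the replicate (y axis, scaled to each gene) in 20 equal bins of the distance from the 5'-most cluster (x axis, kb) in EXT1, ZFAND3, HDAC9, FRMD6, ZNF804A and MIR100HG, by replicate. The replicate curves follow each other in each gene. HDAC9 falls from its first bin, EXT1 and ZNF804A first rise to a peak near the 5' end and then fall, and FRMD6 and MIR100HG start near 0.

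The same measure was taken over all genes. On a scale from 0 at the 5'-most cluster of a gene to 1 at the 3'-most, the median member cluster lay at 0.363. When each gene was cut into 10 equal parts, the first held 17.2% of member clusters and the last 5.16%. The median depth was 7 tags in all 10, close to the minimum of 5 that the table lists. Weighting member clusters by tags on this scale gave a median of 0.357. With only clusters of at least 10 tags the unweighted median was 0.319, and with at least 30 it was 0.264. Under these minimums shallower clusters, exonic ones included, were dropped and the ends of each gene redrawn. The values therefore do not show that deeper clusters lie nearer the 5' end. The 5' side of the middle held 63.2% of member clusters and 63.7% ± 0.485 (SD, n = 2) of their tags. For CDS clusters of the same genes the 5' side held 30.6%, and for 3'UTR clusters 3.75%. The 3'UTR value largely follows from where a 3'UTR lies. The place of intron sequence along each gene was not computed, so member clusters have no baseline here. The scale is set by the clusters themselves, so a gene whose first exon has no cluster starts at its first intron cluster. In the 1084 genes with both 5'UTR and 3'UTR clusters, chosen after the pooled value was seen, the 5' side held 61.7% of member clusters. Without the 10 genes with the most member tags it held 63.3%.

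The tilt was a majority pattern and not a rule. Among 906 genes with at least 20 member clusters, the median member cluster lay on the 5' side of the middle in 65.6% (95% Wilson interval 62.4 to 68.6%). Among the 186 genes with at least 100, the share was 76.3% (69.7 to 81.9%). MBNL2, a regulator of alternative splicing, was among the genes with the reverse pattern, with 7.19% of its 1279 member tags in the first 25% and 72.7% in the last. RBFOX2, a splicing regulator as well that was chosen after its values were seen, had 4.58% and 69.6% of 349 tags.

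**Figure D5:**
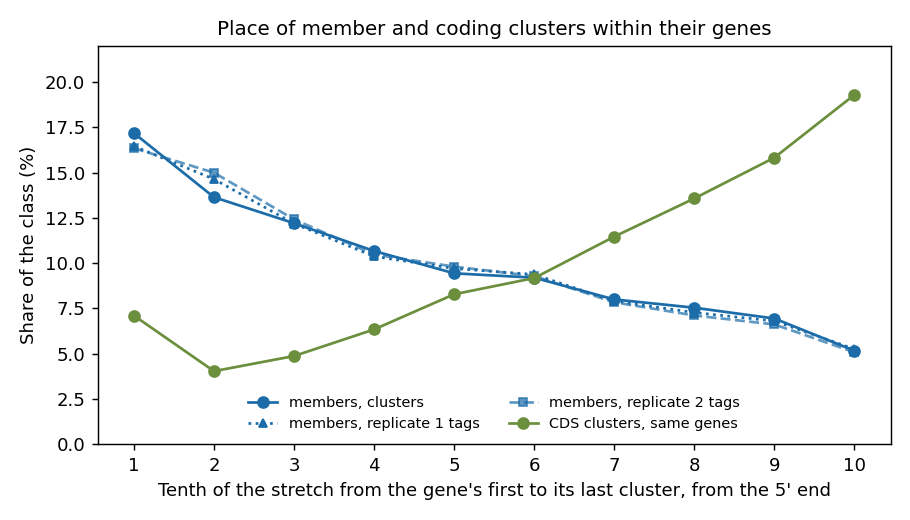
Share of a class (%, y axis) in each of 10 equal parts of the stretch from the first to the last cluster of a gene, from the 5' end (x axis), for member clusters, their tags in each replicate, and CDS clusters of the same genes. Member clusters fall from 17.2% in the first part to 5.16% in the last, whereas CDS clusters rise to 19.3%.

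Most member clusters lay far from any exonic cluster of their gene. The median distance to the nearest was 14262 nt. Within 200 nt lay 2.36%, within 1000 nt 10.7% and within 5000 nt 30.9%. The closest were slightly deeper. Within 200 nt the mean log2 tags per cluster was 3.23, farther away up to 1000 nt 3.13, from there to 5000 nt 3.07 and beyond that 3.01. Members of 30 tags or more made up 7.21% of the closest group and 3.28% of the farthest.

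Member clusters lay in near equal numbers on either side of bound coding sequence. Of 5891 member clusters within 1000 nt of a CDS cluster, 2945 lay upstream and 2946 downstream. By tags, 50.7% ± 0.404 (SD, n = 2) were upstream. Within 200 nt the upstream share was 51.9% of 1234 clusters (95% Wilson interval 49.1 to 54.6%), an interval that includes an even split. These counts concern exons that themselves carried a cluster, and the distance to splice sites was not computed because no annotation of the files' build was used.

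Member clusters lay close to one another. Between neighbours of the same gene the median gap was 250 nt, 23.3% of gaps were below 50 nt and 74.9% were below 1000 nt. Clusters less than 50 nt apart were joined into stretches. At least 5 clusters made up 961 stretches in 294 genes, which held 6430 member clusters. The longest in number had 24 clusters over 4354 nt in MIR181A1HG, the noncoding host gene of miR-181a-1, with 972 tags. The deepest lay in EXT1 and spanned 4249 nt with 10 clusters and 3577 tags, 0.744 per 1000 in replicate 1 and 0.815 in replicate 2.

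The single clusters with the most tags were mostly from that one gene. EXT1 held 8 of the first 10 member clusters and 15 of the first 20. The largest, at chromosome 8, 119151690 to 119152325 on the minus strand, held 167 tags in replicate 1 and 689 in replicate 2. Beside it lay the cluster with the next most tags, at 119152331 to 119153222, with 204 and 614. The other two of the first 10 were in MIR100HG, at chromosome 11, 121524282 to 121525203 on the minus strand with 138 and 492 tags, and at 121469263 to 121470246 with 128 and 415. The largest member cluster ranked only 222 among all clusters of the table. Coordinates are those of the deposited table, whose build the submitters' processing notes give as hg18.

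Of the 298 member clusters with at least 100 tags, 116 were in EXT1, 22 in MIR100HG, 17 in FRMD6, 14 in PCNXL4, 11 in SRPK1 and 10 in ZNF804A. The 298 were spread over 67 genes in all. Such clusters were long, with a median length of 395 nt, and 3 were under 100 nt. The narrow ones were looked at after their values were seen. They were the DCTN6 and EIF4A2 clusters that the split test called and a 58-nt cluster in HDAC9 with 60 and 139 tags, at chromosome 7, 18541815 to 18541873. Further narrow clusters of 30 tags or more lay in CEP170, a centrosomal protein gene, MERTK, a receptor tyrosine kinase gene, and ERC1, which encodes a scaffold protein. These had lengths of 22, 21 and 23 nt and tags of 1 and 51, 4 and 40, and 3 and 30 in replicate 1 and replicate 2.

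All 3417 genes hold an intron cluster by the rule. Among them, genes for long noncoding RNAs were few but bound mainly in clusters labelled intron. RefSeq calls 80 of the genes long noncoding. Their 3942 member clusters held 12.6 tags per 1000 in replicate 1 and 11.9 in replicate 2, with an intron share of 84.7%, against 35.0% over all 3417 genes. MIR100HG and FTX held 38.2% of these tags. Genes named after their values were seen include MIR181A1HG with 4215 tags and an intron share of 98.9% and LINC00478, the host gene of miR-99a and let-7c, with 2493 tags and 99.8%. The label depends on the transcripts the authors' annotation held. LINC00657, now named NORAD and known as an intronless RNA, had 21 clusters labelled intron with 992 tags beside 12 exonic clusters with 360 tags.

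Gene lists that fit the protein and the cells were described next, against 3417 member-holding genes of 7712 with clusters (44.3%), a median of 6 member clusters per gene and a median intron share of 25%. Splicing factors came first. Of 25 hnRNP genes with clusters, 18 held member clusters, with 4917 tags and a median intron share of 11.03%. HNRNPC, a poly(U)-binding packaging protein gene, held 1949 of those tags in 128 clusters, with 447 in replicate 1 and 1536 in replicate 2. PTBP2, the neural polypyrimidine tract binding gene, held 1273, HNRNPH1 505 and HNRNPA1 339. Intron shares were 71.9% in HNRNPC and 80.3% in PTBP2 but 33.9% in HNRNPH1, so the list was uneven.

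SR protein genes, the splicing activators, held fewer member tags as a list but not per gene. Over the genes that held member clusters, the median was 12 clusters and 111 tags, against 7 and 70.5 in hnRNP genes. Of 13 with clusters, 7 held member clusters with 794 tags in all and a median intron share of 15.2%. TRA2A led with 294 tags and an intron share of 52.7%, and SRSF11, SRSF10 and TRA2B held 140, 135 and 111. The kinases that phosphorylate these proteins were represented by SRPK1, with 4449 tags in 187 member clusters, or 1.02 per 1000 in replicate 1 and 0.992 in replicate 2. DYRK1A and SRPK2 held 152 and 88 tags, so SRPK1 accounted for nearly all of the 4689 tags of the 3 member-holding genes of that list.

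Among tissue splicing regulators, 12 of 15 genes with clusters held member clusters, with 5400 tags and a median intron share of 42.1%. MBNL1, the muscleblind regulator of fetal and adult exon choice, held 2140 tags in 235 clusters, MBNL2 1279, RBM39 565 and TIAL1 454. MBNL1 is also one of 6 genes that the study names for their splicing, all of which held member clusters. MBNL1 had 0.541 tags per 1000 in replicate 1 and 0.468 in replicate 2, with an intron share of 63.2%. LIMCH1, an actomyosin regulator gene, held 403 tags in 64 clusters and SEC31A, a COPII coat gene, 184 in 25. SLK, a Ste20-like kinase gene, had 95 tags in 11 clusters, MDM4, a p53 inhibitor gene, 36 in 4, and TNC, the tenascin C gene, 11 in 2. MBNL1 apart, these genes had intron shares between 4.80% in MDM4 and 30.6% in SEC31A. The study chose them with these binding data in hand, so their membership is no independent evidence.

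The single clusters in these 6 genes were small. The largest was in MBNL1, at chromosome 3, 153653533 to 153653874 on the plus strand, with 16 tags in replicate 1 and 47 in replicate 2, and lay 2104 nt from the nearest exonic cluster. In SLK the largest 3 held 17, 15 and 14 tags within 2093 nt of an exonic cluster, the nearest at 369 nt. In MDM4 the largest held 13 tags and in TNC 6. None of the clusters in these 6 genes was called in the split test, which says little at such depths. Every listed cluster has at least 1 replicate 1 tag, so a shallow cluster cannot be called low in replicate 1.

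Genes that host small nucleolar RNAs in their introns were rarely among the members. Of 31 with clusters, 4 held member clusters, with 583 tags. They were WDR43 with 386 tags in 43 clusters, EIF4A2 with its single cluster of 152, TAF1D with 31 and RPL4 with 14. Very long genes at common fragile sites fell on both sides of the rule. Of 11 with clusters, 4 held member clusters and 6 were bound only in introns, among them FHIT with 6807 tags in 872 clusters. EXT1 supplied 50519 of the 52536 member tags of this list. LPP, a focal adhesion gene, held 1041, the growth factor gene NRG1 971 and GPC6 5 tags in its single member cluster, beside a single exonic cluster of 5.

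Signalling and adhesion genes were bound in introns in part. Of 20 focal adhesion and integrin genes with clusters, 16 held member clusters, with 6253 tags and a median intron share of 16.0%. PTK2, the focal adhesion kinase gene, held 2852 in 354 clusters at an intron share of 77.4%. LPP, ITGA1 and ITGB1 held 1041, 863 and 825, with ITGB1, the beta 1 integrin gene, at 26.2%. Of 27 actin regulators and myosins, 20 held member clusters with 5167 tags and a median intron share of 21.1%, led by DIAPH2 with 1084, ARHGAP29 with 794, CDC42BPA with 652 and FMNL2 with 637. DIAPH2, a formin gene, had an intron share of 97.4%, unlike ARHGAP29 at 36.3%.

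Of 25 receptor tyrosine kinase and MAPK genes, 10 held member clusters, with 4627 tags and a median intron share of 12.2%. EGFR, the epidermal growth factor receptor gene, held 4029 of these in 360 clusters, 0.978 per 1000 in replicate 1 and 0.900 in replicate 2, at an intron share of 61.3%. MET, SPRED1 and IGF1R held 188, 166 and 124, so EGFR alone carried the list. Of 26 genes of TGF-beta, Hippo and Wnt signalling, 19 held member clusters with 4967 tags and a median intron share of 13.9%. SMURF2, a ubiquitin ligase gene of the TGF-beta pathway, held 1408, YAP1 786, CTNNB1 669 and TEAD1 435.

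Ubiquitin ligase genes held more than the other lists apart from the fragile site genes. Of 26 with clusters, 22 held member clusters, with 16012 tags and a median intron share of 42.5%. NEDD4L led with 4689 tags in 390 clusters, or 1.07 and 1.06 per 1000 in the replicates. FBXW7, the substrate receptor for cyclin E and MYC, held 2595 in 287 clusters at an intron share of 98.1%. HERC4 and BIRC6 held 1967 and 1469. In the list 8 genes had intron shares above 50%. Of 35 chromatin regulators, 30 held member clusters with 5467 tags and a median intron share of 23.0%. ASXL1, CHD9, SETD5 and CHD6 held 1206, 893, 886 and 546.

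The marker genes themselves were mostly bound outside introns. Of the 8 mesenchymal-like markers 5 held member clusters, and CD44, a hyaluronan receptor gene with many variable exons, supplied 2791 of their 3029 tags in 128 clusters at an intron share of 32.2%. ANXA1 held 135 and VIM 60, the latter 1.79% of its tags, MSN held 38 and AXL 5. None of the luminal markers held a member cluster.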

How the data were processed

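RNA bound by Flag-RBM47 was sequenced by HITS-CLIP in 2 replicates. The authors mapped reads, collapsed them to unique tags and grouped overlapping tags into clusters; the submitters' processing notes name Novoalign, with no version, and hg18. The deposited table gives tag counts for each cluster, per replicate and in total, with the authors' location labels. Because clusters needed a tag in both libraries, column sums are not library depths. Coordinates are as deposited, and whether they count from 0 or 1 is not known; no reference sequence of that build was used.

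With Python 3.11.15, pandas 2.3.3, numpy 2.4.6 and scipy 1.17.1, members were found by the rule, tags were scaled per 1000 of each replicate's column sum, and means ± SD (n = 2) were taken. Length is end minus start. An exonic cluster has any exonic label, also beside other labels. log2 values need no pseudocount. Each cluster's split was tested by a two-sided exact binomial test, with Benjamini-Hochberg adjustment over 233546 clusters and a threshold of 0.05. The test was tried on simulated data, with changes planted only in clusters of at least 100 tags. Those data did not require a tag in both libraries, and recovery in shallower clusters was not tested. Other values are descriptions, since clusters of a gene are not independent and replicates may share a culture. RefSeq gene IDs gave current names and biotypes for 3407 of 3417 genes.

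Genes named are the 20 with the most member tags, the 10 with the most members, the 10 largest members, up to 4 leading genes per list, the 6 splicing genes and members the test called; others are marked. The members and the 15 gene lists were chosen with earlier results of these data known. Alternatives were single replicates, tag minimums, and other partners, distances, weights and expected splits. Matplotlib 3.10.9 drew the figures.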

Additional observations from a re-analysis of the deposited data

Results flagged for a closer look

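Outside the comparisons above, 3719 clusters labelled intron carried no gene ID and could not be sorted by the rule. They held 36988 tags, 9184 in replicate 1 and 28355 in replicate 2. They were set apart because they fall in none of the classes compared above. The whole-table count, the column sums and the split test do include them. Every cluster in the table has at least 5 tags, so that they hold tags at all is no finding.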

How the results depend on the processing

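No paired analysis was possible because the design has 1 group. Of 56 alternatives to the values above, 13 were labelled as unchanged, 41 as moved with the direction kept and 2 as changed in sign. Unchanged meant within the spread between replicates or the counting interval, which treats clusters or tags as independent. The number of split-test calls was instead judged by its ratio to the main number. For the median position the spread was that of tag-weighted medians. Some alternatives were chosen after seeing the data. They were those by depth group, without EXT1 or the leading genes, in genes with both UTRs, or with the split of deep clusters expected. The share of intron clusters in genes also bound elsewhere was 84.1% to 92.6% with either replicate left out, 89.7% and 87.5% with at least 10 and 30 tags, 83.8% when the partner needed 10 tags and 81.9% when it had to be labelled 3'UTR alone. The intron share of tags was 31.1% to 33.5% with a replicate left out and 39.1% when mixed labels with intron were counted. The share of the first 10 genes was 23.4% to 41.2% with a replicate left out, 31.4% and 58.5% at 10 and 30 tags, 10.2% by clusters and 15.5% without EXT1. Members minus intron clusters of genes bound only in introns came to 0.24 to 0.27 with a replicate left out, 0.14 per nt and 0.0355 over gene means. Members minus 3'UTR clusters came to -1.12 to -0.83 with a replicate left out, -0.95 and -0.74 at 10 and 30 tags and -0.80 per nt. The share within 1000 nt of an exonic cluster was 9.38% to 10.3% with a replicate left out, 10.3% and 10.4% at 10 and 30 tags, 2.36% for 200 nt and 30.9% for 5000 nt. The median position was 0.286 to 0.346 with a replicate left out and 0.319 and 0.264 at 10 and 30 tags. In these settings the ends of each gene were redrawn from the clusters kept. The median was 0.357 weighted by tags, 0.386 in genes with both UTRs and 0.358 without the 10 leading genes.

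The replicate 1 share of members minus that of 3'UTR clusters could not be computed without a replicate. It was 3.98 points as a median over genes, 0.841 at 10 tags or more and 1.002, 0.816 and 0.258 points at 5 to 9, 10 to 29 and 30 to 99 tags, and turned to -0.226 at 30 tags or more and -0.195 at 100 or more. The number of members called in the split test was 1 when scaled to the median ratio, 1 with the beta-binomial test and 1 with the split of clusters of at least 100 tags expected, and that one was DCTN6 in each; the cause was not tested. Depth limits single members, whose median in replicate 1 was 2 tags.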
